A study of Mus musculus with 2 samples.

Results

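Heat shock proteins and J-domain chaperones are the genes that help other proteins reach and keep their folded shape. They were taken here as every mouse gene whose symbol starts with Hspa, Hspb, Hspd, Hspe or Hsph and a number, with Hsp90, or with Dnaja, Dnajb or Dnajc and a number. Of the 16174 genes listed in at least 1 library, 69 matched, and 65 of these reached 1 FPKM (fragments scaled to transcript length and sequencing depth) in at least 1 library. Those 65 are described by the compartment in which their proteins work: 38 in the cytosol and nucleus, 13 in the endoplasmic reticulum (ER), 9 in mitochondria and 5 elsewhere. The 4 genes below 1 FPKM in both libraries were Dnajb7, Dnajc6, Hspb3 and Hspb9. Just inside the limit lay Hspb7, at 0.46 FPKM in control and 1.46 FPKM in knockout tissue, and just outside it lay Dnajb7, at 0.18 and 0.09 FPKM. A further 19 symbols that fit the pattern, 16 of them pseudogenes, had no value in either library and were not analysed here.

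Poly(A) RNA was sequenced from brown adipose tissue, the heat-producing fat, of female C57BL/6 mice fed chow until 45 weeks of age. The control library had the genotype D3Bfl/fl, floxed alleles with no Cre named. The knockout library had the genotype D3Bfl/fl-UCP1-Cre+/-, the same floxed alleles plus a Cre recombinase driven by the Ucp1 promoter, which is active in brown adipocytes. D3B is read as Dnmt3b, a DNA methyltransferase, from knowledge of the study, and the labels do not say how many mice gave each library. Deletion of D3B and presence of Cre cannot be told apart, nor can genotype be told apart from the sequencing lane, which was 2 for the control and 1 for the knockout.

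The libraries held 9666528 and 10068359 expected counts. Dnmt3b stood at 0.39 FPKM in control and 0.18 FPKM in knockout tissue, on 15 and 7 counts, and the interval of its ratio, 0.155 to 1.17, included 1. Whole tissue was sequenced, and this Cre acts in its brown adipocytes. The brown adipocyte gene Ucp1 (4987 and 4271 FPKM) and the general adipocyte gene Adipoq (1087 and 1104 FPKM) were abundant in both libraries. Markers of other cells differed: 6 of 6 macrophage genes and 7 of 7 fibroblast genes had a log2 ratio above 0. Of all 11746 genes with 1 FPKM or more in either library, 5393 did. Summed levels were 230 and 371 FPKM for macrophages and 318 and 507 FPKM for fibroblasts, and no lymphocyte marker reached 1 FPKM. Each genotype had 1 library, so the spread between mice is unknown and no test between genotypes was made. Every ratio is knockout to control, and the range after it is an exact 95% counting interval, which covers counting error only. In bulk tissue, fewer cells of a type and less RNA per cell cannot be told apart.

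As background, HSP70 proteins bind exposed stretches of unfolded chains and release them in a cycle driven by ATP. J-domain proteins bring clients to HSP70 and speed up its ATP use, and nucleotide exchange factors reset it. HSP90 takes over clients such as kinases and steroid receptors at a later stage, and small heat shock proteins hold unfolding chains until HSP70 can act. In mitochondria, which fill brown adipocytes, a dedicated HSP70 pulls precursor proteins through the inner membrane and the HSP60-HSP10 chaperonin folds them. Cytosolic chaperone genes are classic targets of heat shock factors, which bind repeats of the bases GAA and their reverse complement, TTC. ER chaperone genes answer to the unfolded protein response.

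The upstream sequences below are shown because genes with the same element, among them Hspa1a, Hspa1b, Hspb6, Hspe1 and Dnajb6, were lower, higher or level in the knockout library. They come from RefSeq on build GRCm38.p6, in a table that held a promoter for 52 of the 65 genes. The values of the libraries were made on mm9, so the coordinates serve to place the sequence alone. Each is read 5′ to 3′ on the strand of the gene. Capitals mark matches to GAANNTTC or TTCNNGAA, a heat shock element of a pair of inverted units, searched on both strands. The first pair are the 250 bases before the start sites of the stress-induced HSP70 genes, at chr17:34972157-34972406 for Hspa1a and chr17:34959239-34959488 for Hspa1b, both on the minus strand.
Hspa1a: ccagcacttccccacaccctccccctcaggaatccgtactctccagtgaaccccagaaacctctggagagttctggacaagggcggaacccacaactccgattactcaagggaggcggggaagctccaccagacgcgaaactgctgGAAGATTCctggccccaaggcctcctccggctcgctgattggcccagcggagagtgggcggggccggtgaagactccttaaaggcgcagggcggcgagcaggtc
Hspa1b: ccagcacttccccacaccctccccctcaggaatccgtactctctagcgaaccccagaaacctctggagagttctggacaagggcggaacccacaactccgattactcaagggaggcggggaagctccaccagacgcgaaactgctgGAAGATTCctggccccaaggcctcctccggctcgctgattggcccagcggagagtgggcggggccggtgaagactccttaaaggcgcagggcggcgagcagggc

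Over these 250 bases the genes were identical at 247. With positions counted from 1 at the 5′ end and Hspa1a as the reference, the substitutions were C44T, T47C and T249G. The single match, 104 bases before the start site, is the same in both.

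The mitochondrial chaperonin genes Hspe1 and Hspd1 lie head to head, with start sites 216 bases apart. The 250 bases before Hspe1, chr1:55087898-55088147 on the plus strand, take in the stretch between them. It holds a run of 18 bases with 3 overlapping matches, beginning 89 bases before the Hspe1 start, which both genes share.
Hspe1: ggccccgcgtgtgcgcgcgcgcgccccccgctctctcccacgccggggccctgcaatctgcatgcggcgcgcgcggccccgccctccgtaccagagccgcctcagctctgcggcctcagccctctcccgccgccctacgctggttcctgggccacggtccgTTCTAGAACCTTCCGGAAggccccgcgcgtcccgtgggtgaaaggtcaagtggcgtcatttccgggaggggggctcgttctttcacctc

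Shorter windows are shown for other cytosolic genes with a match upstream of the start site. They cover chr5:149636337-149636399 (minus strand) for Hsph1, chr5:135887772-135887859 (plus) for Hspb1, chr7:30553151-30553218 (plus) for Hspb6 and chr5:29735822-29735894 (plus) for Dnajb6.
Hsph1: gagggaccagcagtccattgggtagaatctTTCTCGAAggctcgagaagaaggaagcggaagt
Hspb1: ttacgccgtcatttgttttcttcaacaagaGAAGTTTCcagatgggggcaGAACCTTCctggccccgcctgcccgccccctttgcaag
Hspb6: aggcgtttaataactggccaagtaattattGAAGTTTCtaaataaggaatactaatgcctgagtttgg
Dnajb6: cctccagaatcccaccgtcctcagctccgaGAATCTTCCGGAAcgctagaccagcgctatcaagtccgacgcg

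In the ER group capitals mark the ER stress element, CCAAT and CCACG with 9 bases of any kind between them, again on either strand. The windows lie at chr2:34771995-34772073 (plus) for Hspa5, chr10:86705503-86705686 (minus) for Hsp90b1 and chr14:118937797-118937875 (plus) for Dnajc3.
Hspa5: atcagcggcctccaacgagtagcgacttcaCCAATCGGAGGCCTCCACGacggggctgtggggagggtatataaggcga
Hsp90b1: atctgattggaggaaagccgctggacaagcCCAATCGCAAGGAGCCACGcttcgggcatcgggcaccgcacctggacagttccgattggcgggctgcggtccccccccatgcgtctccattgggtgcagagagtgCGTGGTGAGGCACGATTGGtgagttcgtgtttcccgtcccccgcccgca
Dnajc3: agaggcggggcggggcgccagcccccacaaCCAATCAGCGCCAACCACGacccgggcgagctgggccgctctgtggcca

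Within the promoter window of 300 bases, the paired heat shock element was found for 14 of the 52 chaperone genes (26.9%) and for 17% of the 27025 genes in the table. The stricter form with a further inverted unit at the same spacing, which contains the paired form, was found for 4 (7.69%), namely Hspd1, Hspe1, Hsph1 and Dnajb6, against 0.662% of genes. In Hsph1 the stricter form lies after the start site, outside the bases shown. The ER stress element was found for 3 (5.77%), the genes printed above, against 0.137%. A match describes letters in a window and is not evidence of binding.

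Some chaperone transcripts were among the abundant messages of the tissue. Levels were mostly close in the 2 libraries, with 92.3% of the chaperone genes and 91.7% of all tested genes within 1.5-fold. The 65 genes were 0.553% of the genes tested. Together they made up 0.745% of all FPKM in the control and 0.777% in the knockout library. The 12 genes at 100 FPKM or more in either library held 3668 of their 4524 FPKM in the control. Their median control level was 15.2 FPKM, against 8.39 FPKM over all tested genes. The most abundant chaperone gene was Hspa8, the constitutive cytosolic HSP70, at 697 FPKM in control and 713 FPKM in knockout tissue. It was followed in the control by the mitochondrial HSP70 gene Hspa9 (603 FPKM), the HSP60 gene Hspd1 (450 FPKM), the constitutive HSP90 gene Hsp90ab1 (410 FPKM) and the mitochondrial J-domain gene Dnajc15 (406 FPKM). The 9 mitochondrial genes summed to 2155 FPKM in the control library, more than the 38 cytosolic genes with 1941 FPKM, and the 13 ER genes summed to 382 FPKM. In the knockout library the sums were 2021, 1987 and 384 FPKM.

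**Figure D1:**
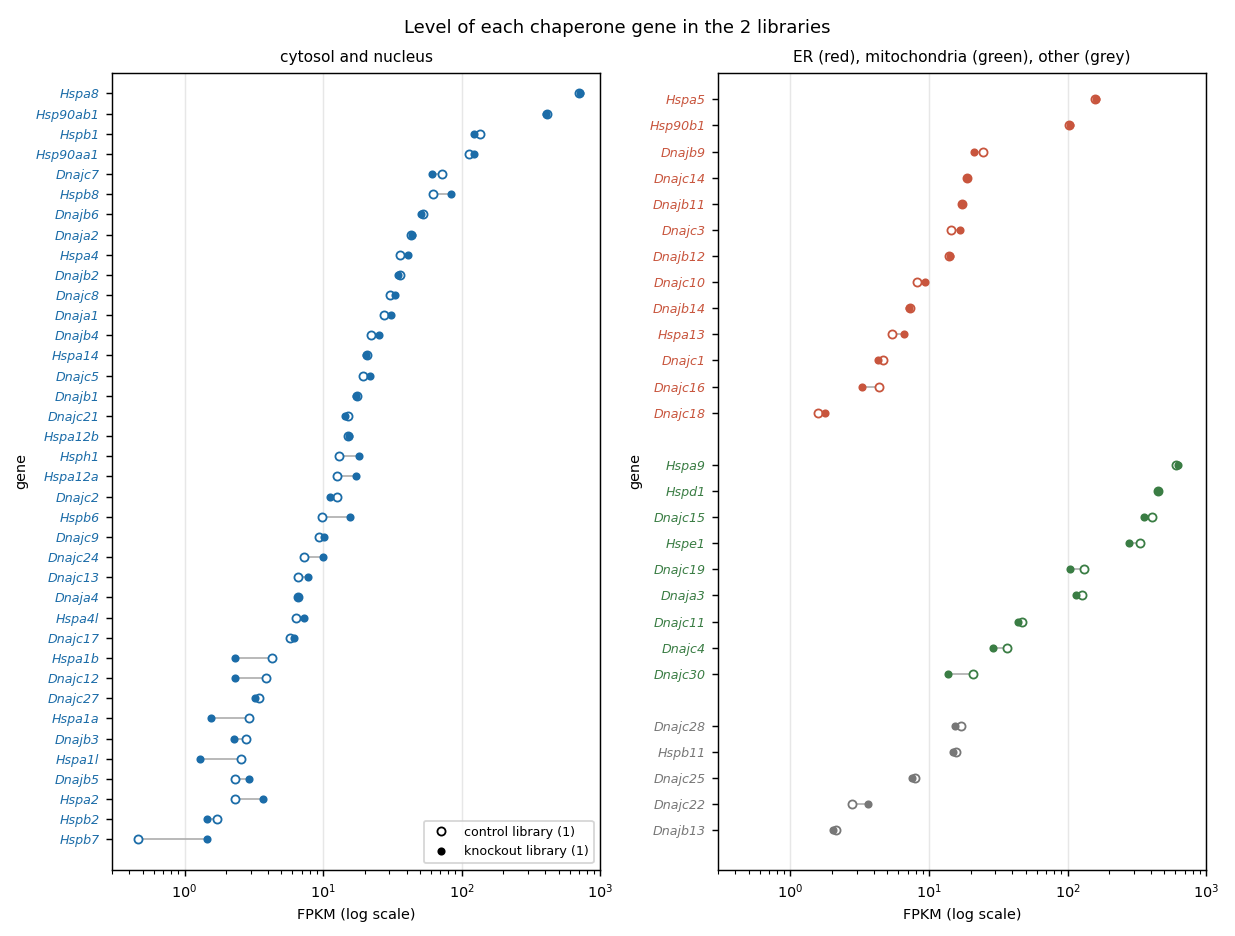
Level of each of the 65 chaperone genes as FPKM on a log axis, with the control library as an open circle and the knockout library as a filled circle (1 library each). Genes are ordered by their control level within the cytosol, the ER, mitochondria and other sites. Hspa8, Hspa9 and Hspd1 lie at the top with nearly overlapping circles, and the widest gaps are those of Hspb7, Hspa1a, Hspa1b and Hspa1l.

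Differences were counted by size. A gene was called when log2 of the knockout to control ratio of FPKM + 1 passed the stated fold and the counting interval excluded 1. This scale understates the difference of genes at low levels. Among the 65 genes, 2 were at least 1.5-fold higher (3.08%), where 4.35% of the 11746 genes with 1 FPKM or more were. At least 1.5-fold lower were 3 (4.62%), where 3.41% of all those genes were. No chaperone gene passed 2-fold, a size reached by 0.902% of all genes in the higher and 0.673% in the lower direction. Within 1.5-fold lay 92.3% of the chaperone genes and 91.7% of all genes. The shares called among the chaperones were thus near those over all genes. The median log2 ratio was 0.0038 over the 65 genes and -0.03 over all genes tested. With the size condition dropped, the interval lay above 1 for 16 chaperone genes (24.6%, against 18.1% of all genes) and below 1 for 14 (21.5%, against 22.5%).

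**Figure D2:**
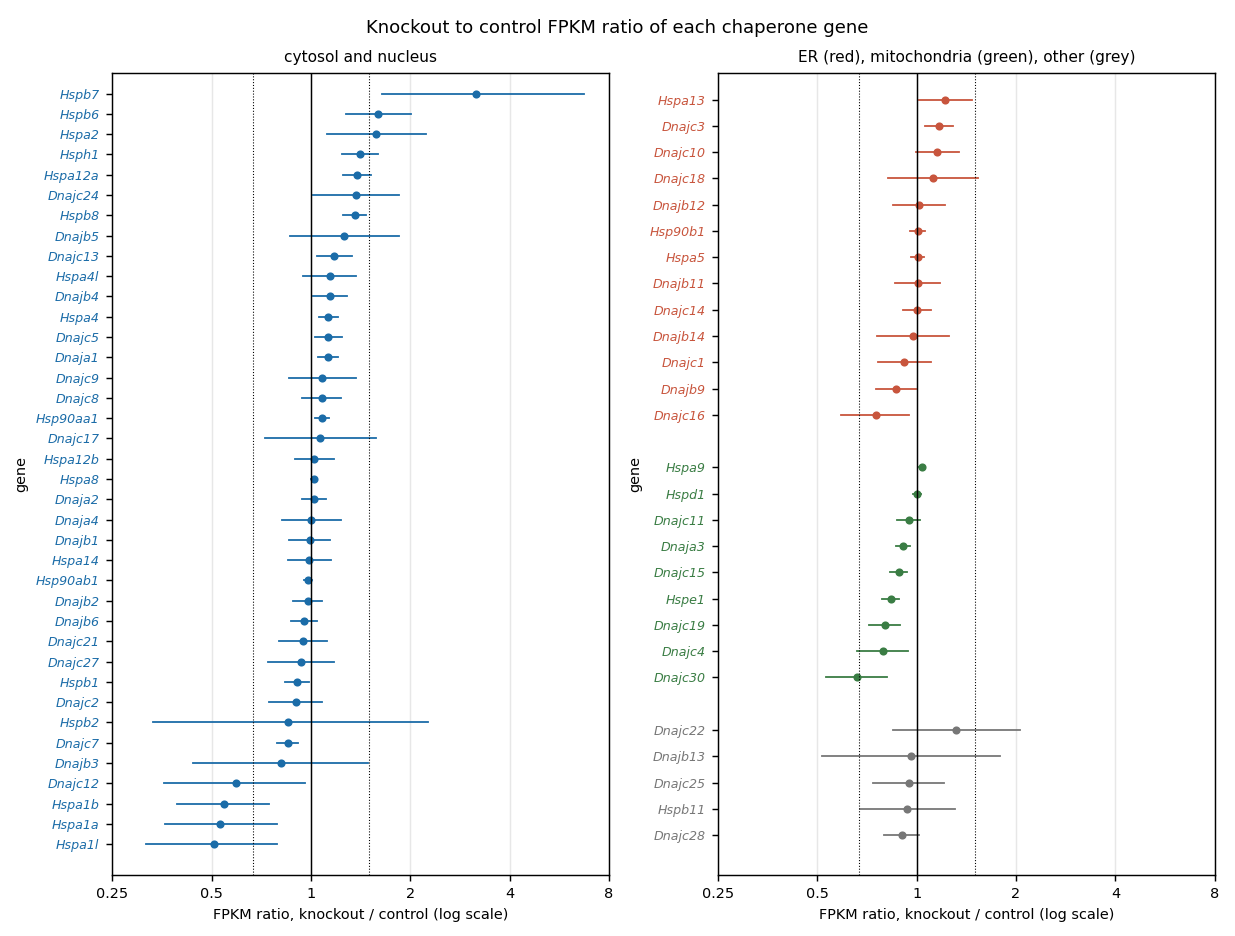
Knockout to control ratio of FPKM for each of the 65 genes on a log axis, with bars for the 95% counting interval, which covers counting error only. The solid line is a ratio of 1 and the dotted lines are 1.5-fold in either direction. The small heat shock genes Hspb7 and Hspb6 lie farthest to the right, Hspa1a, Hspa1b and Hspa1l farthest to the left, and all 6 mitochondrial J-domain genes lie to the left of 1.

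The stress-induced HSP70 genes were lower in the knockout library, while the constitutive one was level. Hspa1b, which is strongly induced by heat and other protein damage, was at 4.24 FPKM in control and 2.31 FPKM in knockout tissue, for a ratio of 0.545 (0.394 to 0.745). Hspa1a, its near-identical copy, was at 2.90 and 1.54 FPKM, for a ratio of 0.531 (0.360 to 0.789). Hspa1l, a relative at the same locus known mainly from testis, was at 2.56 and 1.30 FPKM, for a ratio of 0.508 (0.316 to 0.792). These 3 were the genes called at least 1.5-fold lower, and the only ones of the 65 whose counts were not whole. Their reads were therefore divided among near-identical sequences by the authors' counting, and the 3 are not independent. Summed, they had 249 counts in the control and 138 in the knockout library, or 9.70 and 5.15 FPKM, for a ratio of 0.531 (0.429 to 0.658). The sum is not affected by how reads were divided within the trio. Read as a single gene, it leaves 1 chaperone past 1.5-fold in the lower direction in place of 3. Even together they were low beside Hspa8, whose ratio was 1.02 (0.998 to 1.05).

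Genes that respond within minutes to stimulation were lower in the same library. Of 10 immediate early genes tested, all 10 had a log2 ratio below 0 and 7 were at least 1.5-fold lower. Over all tested genes these shares were 53.8% and 3.41%. Fosb, which is among the 7, and Egr2 passed the limit of 1 FPKM through the control library alone. For both, a difference in that direction was built into the selection. The summed level of the 10 genes was 191 FPKM in control and 74.6 FPKM in knockout tissue. Jun, a transcription factor subunit, was at 40.7 and 23.3 FPKM, for a ratio of 0.573 (0.522 to 0.628). Their part in the lower level of the inducible HSP70 genes was not tested. The labels used here give no time of day, handling or housing temperature at collection.

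Other heat-inducible genes of the cytosol had ratios on either side of 1. Hspb1, given below with the small heat shock genes, was slightly lower, with a ratio of 0.910 (0.835 to 0.989). Hsph1, the HSP110 exchange factor that resets HSP70, was higher in the knockout library, at 18.3 FPKM against 12.9 FPKM, for a ratio of 1.41 (1.25 to 1.60), short of 1.5-fold. Dnajb1, the main heat-induced J-domain partner of HSP70, was level at 17.5 FPKM in control and 17.4 FPKM in knockout tissue, for a ratio of 0.991 (0.858 to 1.14). Hsp90aa1, the inducible HSP90, was at 113 and 122 FPKM, for a ratio of 1.08 (1.03 to 1.13). Hsp90ab1 was at 410 and 403 FPKM, for a ratio of 0.981 (0.954 to 1.01), so within the HSP90 pair the inducible form was slightly higher and the constitutive form level. For the heat shock factors all intervals included 1. Hsf1, the main activator of these genes, was at 11.6 and 10.3 FPKM with a ratio of 0.895 (0.736 to 1.09), Hsf2 at 3.33 and 3.24 FPKM with 0.973 (0.709 to 1.33), and Hsf4 at 3.20 and 3.64 FPKM with 1.14 (0.770 to 1.68). In the list of 4 tested genes that adds Hsbp1, which binds these factors and stood at 115 and 124 FPKM, 2 had a log2 ratio above 0 and none passed 1.5-fold.

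The printed promoters can be set beside these values. Hspa1a, Hspa1b and Hsph1 each carry the paired heat shock element, and the first pair was lower while Hsph1 was higher. Among the 14 genes with the element in the window, 8 had a log2 ratio above 0 and 6 below, with a median of 0.0045, and the 38 genes without it had a median of -0.004.

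The remaining HSP70 and HSP110 genes of the cytosol were level or modestly higher. Hspa4, an HSP110 relative, was at 36.1 FPKM in control and 40.8 FPKM in knockout tissue, for a ratio of 1.13 (1.06 to 1.21). Hspa4l, of the same branch, was at 6.35 and 7.26 FPKM with a ratio of 1.14 and an interval of 0.949 to 1.37 that included 1. Hspa2, best known from sperm development, was at 2.31 and 3.65 FPKM, for a ratio of 1.58 (1.12 to 2.23) that fell short of the rule only on the scale with the pseudocount. Hspa14, which works at the ribosome, was level at 20.6 and 20.4 FPKM.

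The atypical pair Hspa12a and Hspa12b, distant relatives of HSP70, had unequal ratios, a difference that was not tested. Hspa12a was at 12.5 FPKM in control and 17.2 FPKM in knockout tissue, for a ratio of 1.38 (1.25 to 1.52). Hspa12b, known for its expression in endothelial cells, was at 15.1 and 15.5 FPKM, for a ratio of 1.02 (0.894 to 1.17). Of 8 endothelial marker genes, 7 had a log2 ratio below 0 and 4 were at least 1.5-fold lower. Over all tested genes these shares were 53.8% and 3.41%. The endothelial markers had a summed level of 238 FPKM in control and 168 FPKM in knockout tissue. Their part in the level of Hspa12b was not tested.

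Small heat shock proteins included both genes called at least 1.5-fold higher. Hspb6, also called HSP20 and known from smooth, heart and skeletal muscle, was at 9.79 FPKM in control and 15.7 FPKM in knockout tissue, on 126 and 210 counts, for a ratio of 1.60 (1.28 to 2.01). Hspb7, known from heart and muscle, was at 0.46 and 1.46 FPKM on 12 and 40 counts, for a ratio of 3.17 (1.65 to 6.70). Hspb7 passed the limit of 1 FPKM through the knockout library alone, so a difference in that direction was built into its selection. Hspb8, which works with the exchange factor Bag3 to clear misfolded proteins, was at 61.6 and 83.7 FPKM, for a ratio of 1.36 (1.25 to 1.47). Cryab, the alpha-B crystallin, which is a small heat shock protein by family but not by symbol, was at 38.6 and 67.9 FPKM, for a ratio of 1.76 (1.56 to 1.98).

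The other small heat shock genes tested, Hspb1 and Hspb2, had ratios below 1 as reported. Hspb1, or HSP27, the most abundant of them, was at 136 FPKM in control and 124 FPKM in knockout tissue, for a ratio of 0.910 (0.835 to 0.989), and its log2 ratio turned to 0.0046 once the trend with transcript length was removed. Hspb2, a muscle form that neighbours Cryab, rested on 10 and 11 counts, at 1.71 and 1.46 FPKM, with an interval of 0.333 to 2.27. Its log2 ratio was 0.0406 with counts scaled to depth alone (CPM) and 0.0254 with the length trend removed. Bag3 itself was at 27.4 and 26.2 FPKM, for a ratio of 0.959 (0.860 to 1.07).

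Because several of these genes are muscle genes, markers of muscle are given beside them. Of 16 skeletal muscle markers, 13 were listed, 3 reached 1 FPKM, and their sum was 53.0 FPKM in control and 41.9 FPKM in knockout tissue. The contractile genes Myh1 and Myh4 were at 0.03 and 0.05 FPKM in the control and had no count in the knockout library, and Ckm, Myh7 and Ttn had no value in either. Acta1 was at 1.38 and 2.71 FPKM, for a ratio of 1.96 (1.11 to 3.61), and was called at least 1.5-fold higher. Des, which smooth muscle and pericytes also express, was at 39.7 and 27.4 FPKM and made up most of the skeletal muscle sum. Of 8 smooth muscle and pericyte markers, 7 were tested and 5 had a log2 ratio above 0, where 5393 of all 11746 tested genes did. The sum was 141 FPKM in control and 177 FPKM in knockout tissue. Acta2, smooth muscle actin, was at 11.1 and 23.3 FPKM. It was the only smooth muscle marker of the 7 past 1.5-fold, while Pdgfrb was lower at 9.85 and 7.17 FPKM, with a ratio of 0.728 (0.636 to 0.831), and Notch3 was at 5.07 and 4.91 FPKM. The myosin heavy chains of skeletal muscle were thus near 0 in both libraries, and the oxygen carrier Mb was at 9.16 and 10.4 FPKM. The part of muscle cells in the values of Hspb6, Hspb7 and Cryab was not tested.

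Cytosolic J-domain genes of the A and B classes, the general HSP70 partners, lay close to a ratio of 1. All 9 were within 1.2-fold on the log2(FPKM + 1) scale, where 7703 of the 11746 tested genes were. Dnaja1, which delivers receptors and other clients, was at 27.4 FPKM in control and 30.8 FPKM in knockout tissue, for a ratio of 1.13 (1.05 to 1.21). Dnaja2 was at 43.0 and 43.9 FPKM with a ratio of 1.02 (0.942 to 1.11). Dnajb4, a heat-inducible relative of Dnajb1, was at 22.3 and 25.4 FPKM, for a ratio of 1.14 (1.01 to 1.28). Dnajb6, which suppresses aggregation and carries the longer heat shock element, was at 52.7 and 50.4 FPKM, for a ratio of 0.956 (0.873 to 1.04). Dnajb2 was at 35.6 and 34.8 FPKM with a ratio of 0.978. Dnaja4, Dnajb3 and Dnajb5 lay between 2.27 and 6.55 FPKM, and their intervals included 1.

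The C class, whose members share little beyond the J domain, ranged more widely. Dnajc7, which bridges HSP70 and HSP90, was the most abundant in the cytosol and was lower in the knockout library, at 72.1 FPKM against 61.3 FPKM, for a ratio of 0.850 (0.790 to 0.913). Dnajc12, a co-chaperone of the aromatic amino acid hydroxylases, was at 3.88 and 2.30 FPKM on 47 and 29 counts, for a ratio of 0.593 (0.360 to 0.961). Dnajc24, needed to make the modified histidine diphthamide, was higher at 9.89 FPKM against 7.22 FPKM, for a ratio of 1.37 (1.02 to 1.84). Dnajc5, the cysteine string protein of secretory vesicles, was at 19.3 and 21.7 FPKM, for a ratio of 1.13 (1.03 to 1.24), and the endosomal Dnajc13 at 6.54 and 7.71 FPKM, for a ratio of 1.18 (1.04 to 1.33).

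For the others of this class the interval included 1. Dnajc8, a splicing factor, was at 30.4 and 32.8 FPKM, Dnajc21, which acts in ribosome assembly, at 15.2 and 14.4 FPKM, and the ribosome-bound Dnajc2 at 12.5 and 11.3 FPKM. Dnajc9, a histone chaperone, was at 9.29 and 10.1 FPKM. Dnajc17 and Dnajc27 were at 5.74 and 3.43 FPKM in the control library, with ratios of 1.07 and 0.936.

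ER chaperones differed little between the libraries. Of 13 genes, 12 lay within 1.2-fold on the log2(FPKM + 1) scale and 9 had an interval that included 1. Over all 11746 tested genes, 7703 lay within 1.2-fold and 6977 had an interval that included 1. The median log2 ratio of the ER genes was 0.01. Hspa5, or BiP, the HSP70 of the ER and a standard readout of ER stress, was at 158 FPKM in control and 159 FPKM in knockout tissue, for a ratio of 1.01 (0.963 to 1.05). Hsp90b1, or GRP94, its HSP90 counterpart, was at 103 and 104 FPKM, for a ratio of 1.01 (0.955 to 1.06). These 2 genes carry the ER stress element, and so does Dnajc3, or p58IPK, at 14.4 and 16.9 FPKM with a ratio of 1.17 (1.06 to 1.29).

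Soluble J-domain partners of BiP went in both directions. Dnajb9, or ERdj4, a target of the stress-activated factor Xbp1, was lower at 21.3 FPKM against 24.6 FPKM, for a ratio of 0.865 (0.752 to 0.994). Dnajb11, or ERdj3, was level at 17.3 and 17.4 FPKM. Dnajc10, or ERdj5, a disulfide reductase, was at 8.14 and 9.41 FPKM, for a ratio of 1.16 with an interval of 0.992 to 1.34. Hspa13, a microsomal HSP70 relative, was at 5.39 and 6.59 FPKM, for a ratio of 1.22 (1.02 to 1.47).

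Of the membrane-bound ER genes, Dnajb12, which helps to remove misfolded membrane proteins, was at 14.0 and 14.2 FPKM and its relative Dnajb14 at 7.29 and 7.12 FPKM. Dnajc14 was at 18.9 FPKM in both libraries. Dnajc16 was lower at 3.29 FPKM against 4.38 FPKM, for a ratio of 0.751 (0.590 to 0.95). The intervals of Dnajc1 and Dnajc18, at 4.66 and 1.59 FPKM in the control library, included 1.

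Mitochondrial chaperones split into level and lower genes. The large folding machines were close to level: Hspa9, or mortalin, the matrix HSP70, was at 603 FPKM in control and 624 FPKM in knockout tissue, for a ratio of 1.04 (1.01 to 1.06). Hspd1 was at 450 and 452 FPKM, for a ratio of 1.004 (0.976 to 1.03). Its partner Hspe1, the HSP10 lid of the same chaperonin, was lower at 280 FPKM against 335 FPKM, for a ratio of 0.835 (0.785 to 0.884). The level of Hspd1 relative to Hspe1 was 1.34 in the control and 1.62 in the knockout library. Both genes share the upstream stretch printed above, and their transcripts were 2347 and 788 bases long. The part of either in this ratio was not tested.

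All 6 mitochondrial J-domain genes were below a ratio of 1, and for 5 the interval excluded it, where 53.8% of all tested genes had a log2 ratio below 0 and 22.5% an interval below 1. Dnajc19, or TIM14, which switches on mortalin at the import channel, was at 131 FPKM in control and 104 FPKM in knockout tissue, for a ratio of 0.799 (0.717 to 0.887). Dnajc15, a relative that can take the same place and also acts on the respiratory chain, was at 406 and 358 FPKM, for a ratio of 0.883 (0.831 to 0.934). Dnaja3, or TID1, the folding partner of mortalin in the matrix, was at 127 and 115 FPKM, for a ratio of 0.911 (0.865 to 0.957).

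Dnajc30 had the lowest ratio of the mitochondrial group, at 20.7 FPKM in control and 13.6 FPKM in knockout tissue, 0.658 (0.531 to 0.812), and fell just short of 1.5-fold on the log2(FPKM + 1) scale. Dnajc4 was at 36.6 and 28.9 FPKM, for a ratio of 0.789 (0.659 to 0.942). Dnajc11, which is tied to the folds of the inner membrane, was at 46.7 and 44.2 FPKM, for a ratio of 0.945 (0.874 to 1.02). After rescaling to an equal sum of FPKM, 5 of the 6 remained below a ratio of 1.

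Transcript length moved with this pattern. Across all 1047 tested genes under 1000 bases the median log2 ratio was -0.16, against 0.03 for the 3067 genes of 4000 bases and over. The 7 chaperone genes under 1000 bases, of any compartment, all had a log2 ratio below 0, with a median of -0.18, close to that of other short genes. The 5 mitochondrial genes under 1500 bases, Dnajc15, Dnajc19, Hspe1, Dnajc4 and Dnajc30, had a median of -0.32, and the 4 longer ones, Hspa9, Hspd1, Dnaja3 and Dnajc11, a median of -0.04. With the smooth trend over all genes removed, the log2 ratio of Dnajc15 went from -0.18 to -0.0045, of Hspe1 from -0.26 to -0.10, of Dnajc19 from -0.32 to -0.14 and of Dnajc30 from -0.57 to -0.46. Dnajc4, Dnaja3 and Dnajc11 then stood at -0.18, -0.11 and -0.06. All 6 mitochondrial J-domain genes stayed below 0, and their median went from -0.25 to -0.13. The median over the 9 mitochondrial genes went from -0.18 to -0.10. The part of transcript length in these values was not tested.

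**Figure D3:**
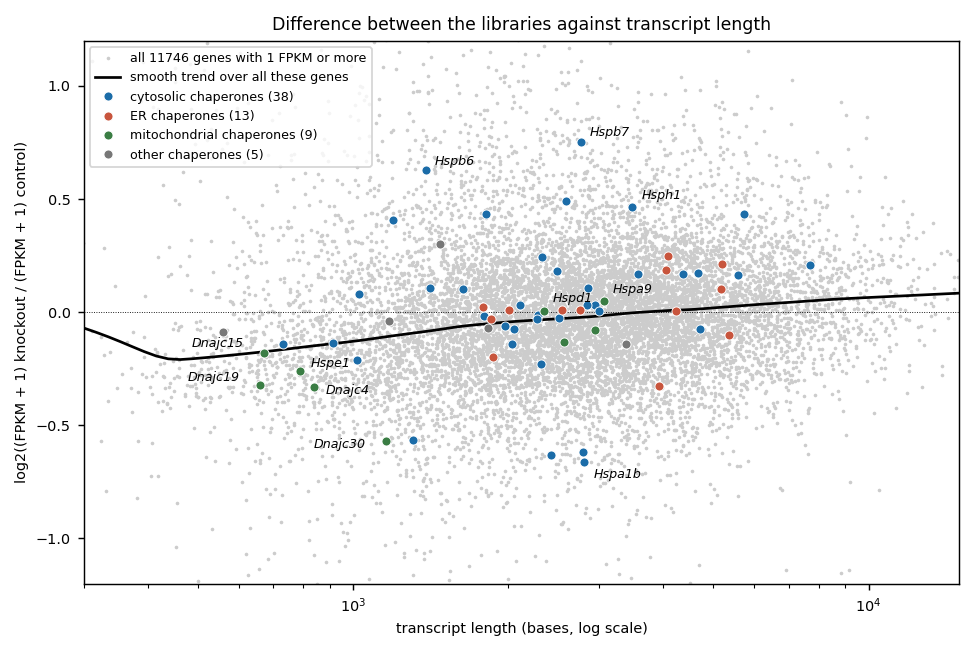
Log2 ratio of FPKM + 1, knockout to control, against transcript length in bases on a log axis, for the 11746 tested genes (grey) and the 65 chaperone genes (coloured by compartment). The black line is the smooth trend over all tested genes, and 159 genes lie outside the axes. The short mitochondrial genes sit at the left below 0, where the trend line is below 0 as well, and Hspa1b, Hspb6 and Hspb7 lie far from the line.

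The 5 genes placed in no compartment were Hspb11, a subunit of transport in cilia despite its name, at 15.8 and 14.8 FPKM, Dnajc28 at 17.1 and 15.5 FPKM, Dnajc25 at 7.92 and 7.49 FPKM, Dnajb13, a part of the sperm tail axoneme, at 2.12 and 2.04 FPKM, and Dnajc22 at 2.76 and 3.63 FPKM. Each had an interval that included 1, and that of Dnajc22, with a ratio of 1.32, was wide, from 0.848 to 2.05.

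Other folding genes were read as lists beside the chaperones. Of 15 HSP70 exchange factors and partners, 7 had a log2 ratio above 0 and 8 below, none passed 1.5-fold, and the median was -0.05. Stip1, which hands clients from HSP70 to HSP90, was at 32.6 FPKM in control and 34.2 FPKM in knockout tissue. Of 17 HSP90 co-chaperones, 7 lay above and 10 below 0 with a median of -0.07, and 1 was called, Fkbp5, the glucocorticoid-induced co-chaperone of steroid receptors, at 3.12 and 14.8 FPKM, for a ratio of 4.73 (3.86 to 5.82). HSP90 itself was nearly level, as given above. The 14 subunits of the TRiC chaperonin and prefoldin, which fold actin and tubulin, had 6 above and 8 below 0, a median of -0.03 and none past 1.5-fold.

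The list of ER folding and unfolded protein response genes had as many members above as below 0, 15 each of 30. Their median was -0.01. At least 1.5-fold lower were 3, where 3.41% of all tested genes were. These were Creld2, Ppp1r15a and Derl3. Creld2, an ER stress-induced gene, was at 14.4 and 8.18 FPKM with a ratio of 0.567 (0.442 to 0.723). Ppp1r15a, or GADD34, which restarts translation after stress, was at 13.3 and 8.22 FPKM with a ratio of 0.617 (0.511 to 0.742). Derl3 was at 1.93 and 0.85 FPKM on 24 and 11 counts. It passed the limit of 1 FPKM through the control library alone, so a difference in that direction was built into its selection. Among the transducers and their factors, which went both ways, Xbp1 had a ratio of 0.992 (0.878 to 1.12), Atf6 of 1.07 (0.961 to 1.19), Ddit3 of 0.864 (0.748 to 0.995) and Atf4 of 0.802 (0.749 to 0.858). Named with their values in view, the sensor Ern1, or IRE1, was higher at 1.16 and 1.92 FPKM with a ratio of 1.66 (1.13 to 2.46), Eif2ak3, or PERK, had a ratio of 1.11 (0.915 to 1.36), and the BiP partner Sdf2l1 was higher at 3.98 and 6.25 FPKM with a ratio of 1.57 (1.05 to 2.37). Ern1 and Sdf2l1 fell short of 1.5-fold on the log2(FPKM + 1) scale. Hyou1, the large HSP70 relative that resets BiP, was at 23.0 and 20.9 FPKM, for a ratio of 0.910 (0.831 to 0.997).

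Of 18 genes of mitochondrial folding and proteolysis, 13 had a log2 ratio below 0, where 53.8% of all tested genes did, none passed 1.5-fold and the median was -0.09. Grpel1, the exchange factor of mortalin, was at 109 FPKM in control and 89.5 FPKM in knockout tissue, for a ratio of 0.824 (0.784 to 0.865). Trap1, the mitochondrial HSP90, was at 199 and 189 FPKM, for a ratio of 0.948 (0.908 to 0.989). The import motor parts Timm44 and Pam16, picked with their values in view, stood at ratios of 0.754 (0.706 to 0.804) and 0.772 (0.691 to 0.859). Others, also picked with their values in view, went the opposite way: Grpel2, the second exchange factor of mortalin, was at 5.65 and 7.11 FPKM with a ratio of 1.26 (1.05 to 1.505), and the protease Oma1 at 5.75 and 8.65 FPKM with 1.504 (1.16 to 1.95). The transcripts of Grpel1, Grpel2, Timm44 and Pam16 were 3338, 4065, 1798 and 552 bases long. Brown adipocyte markers moved the same way, with 9 of 10 below 0. Their summed level was 18735 FPKM in control and 14605 FPKM in knockout tissue. Cox8b, with a transcript of 383 bases, was the largest part of that sum, at 7608 and 5132 FPKM. Elovl3 was higher, at 23.2 and 38.25 FPKM with a ratio of 1.65 (1.46 to 1.87). Zic1, at 2.19 and 0.99 FPKM, passed the limit of 1 FPKM through the control library alone. The part of brown adipocytes in the mitochondrial values was not tested.

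**Figure D4:**
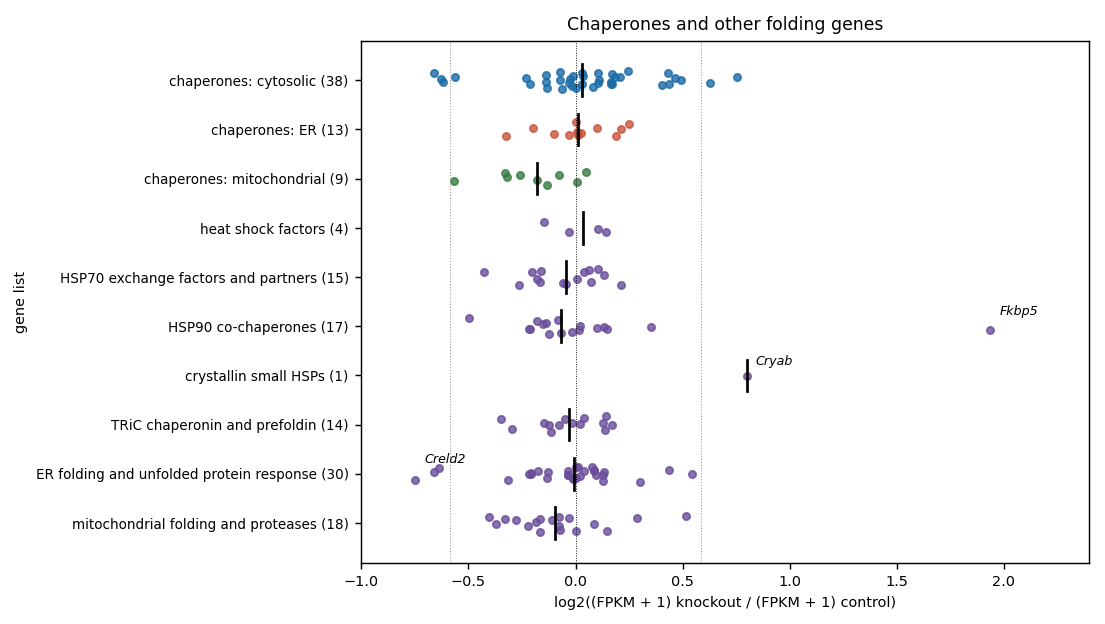
Log2 ratio of FPKM + 1, knockout to control, for the cytosolic, ER and mitochondrial chaperones and for 7 lists of other folding genes. Each point is a gene with 1 FPKM or more, the black bar is the median, the number in brackets is the number of genes, and the dotted outer lines are 1.5-fold. Most points lie between the outer lines, with Fkbp5 and Cryab to the right and Creld2 to the left.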

How the data were processed

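The authors deposited, per the file headers, 1 line per gene, holding its Entrez identifier, its expected count, its transcript length and its FPKM. The submitters' processing notes name RSEM and the build mm9; no aligner is given in the sources used here. Expected counts, as deposited by the authors, divide reads that match several genes, and 94.0% and 94.1% were whole to within 0.05. The protocol names no strand, so overlapping antisense reads are not separated. A gene not listed in a library was set to 0. Symbols came from RefSeq (GRCm38.p6) and were found for 16134 of 16174 genes.

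Genes with 1 FPKM or more in either library were kept. Log2 ratios used FPKM + 1. Intervals come from the Clopper-Pearson method applied to each gene's 2 rounded expected counts, scaled to library size and length (scipy 1.17.1). The code was run on simulated counts drawn from the counting model that the intervals assume, with no spread between mice. That run checks the code and cannot show how well the intervals cover real libraries. The intervals treat reads as independent molecules. With 1 library per group no test was made.

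Compartments, gene lists and markers were chosen with earlier results of these data known. Named by rule were all chaperones, set key genes, and up to 3 genes per list of folding genes past 1.5-fold. Other list genes and markers, among them Hsf4, Jun, Des, Pdgfrb and Cox8b, were named outside this rule with their values known. The length trend was a lowess fit (statsmodels 0.14.6). Alternatives were pseudocounts of 0.1 and 5, other filters, CPM, 3 rescalings, the length trend, and leaving out genes with shared reads. Counting the Hspa1 genes as 1 was chosen after seeing the data.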

Additional observations from a re-analysis of the deposited data

How the results depend on the processing

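The limit of these results is 1 library per genotype, and for genes with few reads, such as Hspb2, Hspb7 and Dnajb13, also the depth. No paired analysis was possible because each genotype had a single library. Of the 65 chaperone genes 51 kept the sign of their log2 ratio in each of the 10 planned settings that gave a value, and the other 14 had an absolute value of at most 0.14 as reported. The count at least 1.5-fold lower, 3 as reported, was 5 with a pseudocount of 0.1 (Dnajc12 and Dnajc30 added), 0 with a pseudocount of 5, with a mean of at least 5 FPKM and without genes with shared reads, and 1 (Hspa1b) with either rescaling to the same FPKM total and with the Hspa1 genes counted as 1. With CPM it was 4 (Dnajc12 added). The count at least 1.5-fold higher, 2 as reported, was 3 with a pseudocount of 0.1 (Hspa2 added), 0 with a pseudocount of 5 and 1 (Hspb6) with a mean of at least 5 FPKM. At least 2-fold higher was 1 gene, Hspb7, with a pseudocount of 0.1 and with CPM, where none was as reported. The median log2 ratio over all chaperones, 0.0038 as reported, was 0.0872 with the same FPKM total, 0.0889 with the 20 most abundant genes left out of that total, and 0.0382 with the length trend removed. The rescaling to the same total moved the median of all tested genes from -0.03 to 0.05, and the number of chaperones above and below 0 from 34 and 31 to 44 and 21. The split of all genes past 1.5-fold went from 511 higher and 401 lower to 678 and 298, and was 748 and 619 with a pseudocount of 0.1, 136 and 107 with 5, and 221 and 191 under the filter of 5 FPKM. The mitochondrial median ranged from -0.18 to -0.09 over all settings. Under the filter of 5 FPKM fewer genes were tested, and leaving out genes with shared reads removed the 3 Hspa1 genes themselves. A larger pseudocount shrinks the log2 ratio of genes at low levels by construction. Rescaling to the same total multiplies every knockout value by the same constant. For the other changes the cause was not tested.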

Other observations

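Ratios between genes within a library do not depend on how the libraries are scaled to each other, although they still carry any effect of transcript length. Hspa8 stood at 1.16 times the FPKM of Hspa9 in the control and 1.14 times in the knockout library, and at 4.41 and 4.48 times that of Hspa5, so the main HSP70 genes of the cytosol, mitochondria and ER kept nearly the same proportions. Hspa8 exceeded Hspa1b 164-fold in the control and 309-fold in the knockout library. Against its exchange factor Grpel1, Hspa9 was 5.55 times as abundant in the control and 6.97 times in the knockout library, and against its import partner Dnajc19 4.62 and 5.99 times. The constitutive Hsp90ab1 was 3.62 times as abundant as the inducible Hsp90aa1 in the control and 3.30 times in the knockout library. These are values of 1 library each, with no estimate of their spread between mice.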
